A study of Rattus norvegicus with 8 samples.

Results

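The genes of the hyaluronan and cumulus matrix were examined in rat ovary, on arrays labelled PMSG and arrays labelled control. They were taken by name: Has1, Has2 and Has3 (the hyaluronan synthases), Ptx3, Tnfaip6, Vcan and Hapln1 (proteins that bind or cross-link hyaluronan), Cd44 (its cell-surface receptor), and Adamts1 and Adamts4 (proteases that cut versican). All 10 genes were on the array, with 18 of its 30367 probes, where 26214 gene names are listed in all. The name PMSG stands for pregnant mare serum gonadotropin, which mainly acts like follicle-stimulating hormone and makes follicles of immature rats grow. Per the labels, immature rats were given a subcutaneous PMSG dose of 50 IU at 26 days of age, carried by albumin in phosphate buffer (volume 0.2 ml), or the buffer alone. The titles of the control samples, by which they were grouped, call them a reference without treatment and do not name the buffer. Ovaries were removed 48 h later, at 28 days of age, and total RNA of the whole ovary was measured on 1-colour arrays, with 4 arrays per label. No strain, genotype or second hormone is named in the labels. Whether a sample is the ovary of 1 animal or a pool is not given in the sources used here, so p-values measure the spread between these samples, which may be technical. In whole-ovary RNA, fewer cells of a type and less RNA per cell cannot be told apart.

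During ovulation, the cumulus cells around the oocyte build a soft gel of hyaluronan, a long sugar polymer, and this cumulus expansion is needed for normal release and fertilisation of the egg. Hyaluronan synthase 2 makes the polymer at the cell membrane. The enzyme-like protein encoded by Tnfaip6 moves heavy chains of the inter-alpha-trypsin inhibitor from serum onto it, and pentraxin 3 (Ptx3) holds these chains together. Versican, the link protein Hapln1 and the receptor CD44 tie the polymer into the matrix and to cells, and ADAMTS proteases cut versican. In the ovary this programme is known to follow the luteinising hormone surge, through epidermal growth factor-like ligands and prostaglandin E2, together with factors from the oocyte. In these samples no agent other than PMSG or buffer is named.

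All directions here follow the sample titles and are stated by label, because genes that gonadotropin is generally known to raise in granulosa cells were lower on the arrays labelled PMSG. The log2 difference was -1.93 for Lhcgr (the luteinising hormone receptor), -2.75 for Star and -3.36 for Cyp11a1 (cholesterol import and the first step of steroid synthesis). For Amh, a product of granulosa cells of small follicles, it was 3.03. The limma adjusted p-values of these 4 genes ran from 2.32e-04 to 0.00541. Whether the labels of the groups were exchanged was not tested; if they were, the sign of every difference below would reverse. This touches all 8 titles, so no set of arrays free of it could be formed. Markers of ovarian cells were present: in each of the 11 marker lists every gene with a probe was well above background on at least 1 array. The share of probes well above background ran from 80.8% to 82.9% on arrays labelled control and from 81.9% to 84.6% on arrays labelled PMSG. The 75th percentile of the signal ran from 1002 to 1103 and from 769 to 1082.

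The array reads each gene through probes of 60 bases, and 5 of the 10 members have more than 1 probe. The file headers place the probes on the rat build rn4, and each probe has a start position in its transcript, counted from 1 at the transcript's 5′ end; no rn4 gene annotation was used here. Of the 18 probes, 14 had at least 1 sense reading frame without a stop codon. The 6 probes below are shown as examples, and each is printed in lower case, 5′ to 3′ along the transcript. Of these, only the Tnfaip6 probe and the Hapln1 probe with start 484 stand for their genes in the results. The probes that stand for Ptx3, Vcan, Cd44 and Adamts1 are not printed.
Ptx3, start 719: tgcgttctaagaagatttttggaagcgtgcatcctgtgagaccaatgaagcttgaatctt
Tnfaip6, start 768: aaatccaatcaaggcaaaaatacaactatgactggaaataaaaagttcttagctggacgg
Vcan, start 7466: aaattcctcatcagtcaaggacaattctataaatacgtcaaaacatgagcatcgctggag
Hapln1, start 274: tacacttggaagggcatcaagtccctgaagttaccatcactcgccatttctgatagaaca
Hapln1, start 484: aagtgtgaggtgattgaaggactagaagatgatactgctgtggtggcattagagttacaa
Cd44, start 1299: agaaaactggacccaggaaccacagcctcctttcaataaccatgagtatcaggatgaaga

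In rn4 the Ptx3 probe lies at chr2:156094523-156094582 on the plus strand. The Vcan probe lies at chr2:19714573-19714632 on the minus strand. The Hapln1 probes lie at chr2:19625975-19626034 and chr2:19629918-19629977 on the plus strand, and the Cd44 probe at chr3:88052458-88052517 on the minus strand. The file lists the Tnfaip6 probe as unmapped. The probe of Adamts4 spans 525 bases of chromosome 13, from 87150072 to 87150596, so its 60 bases cross at least 1 intron. The remaining probes are named below by gene and start position.

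Levels are log2 processed signal minus the 75th percentile of the array, so 0 is the 75th percentile and 1 unit is a 2-fold step; levels of different genes are not compared, since each probe binds with its own strength. The brightest probe, by its mean over all 8 arrays, stands for a gene. By that probe 9 of the 10 genes could be tested and 5 of the 9 differed between the labels at an adjusted p under 0.05 (limma, Benjamini-Hochberg over 25303 probes). Ptx3 and Hapln1 were higher and Vcan, Cd44 and Adamts1 were lower on arrays labelled PMSG. Over all tested probes 34.2% were called, 17.6% higher and 16.6% lower, so calls were common on these arrays. Groups did not overlap for 6 of the 9 genes, the 5 called genes and Has2. The share over all tested probes was 36.6%. The median log2 difference of the 9 genes was -0.31, or -0.25 with Has2 at the bound given below, against 0.11 over all tested probes. Under quantile normalization 1 gene was higher and 5 were lower, and under median centring 1 and 4. Has2 was among the lower genes under both, with the limit given below. Over all tested probes the split of 4452 higher and 4206 lower became 2914 and 5534 under median centring.

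**Figure D1:**
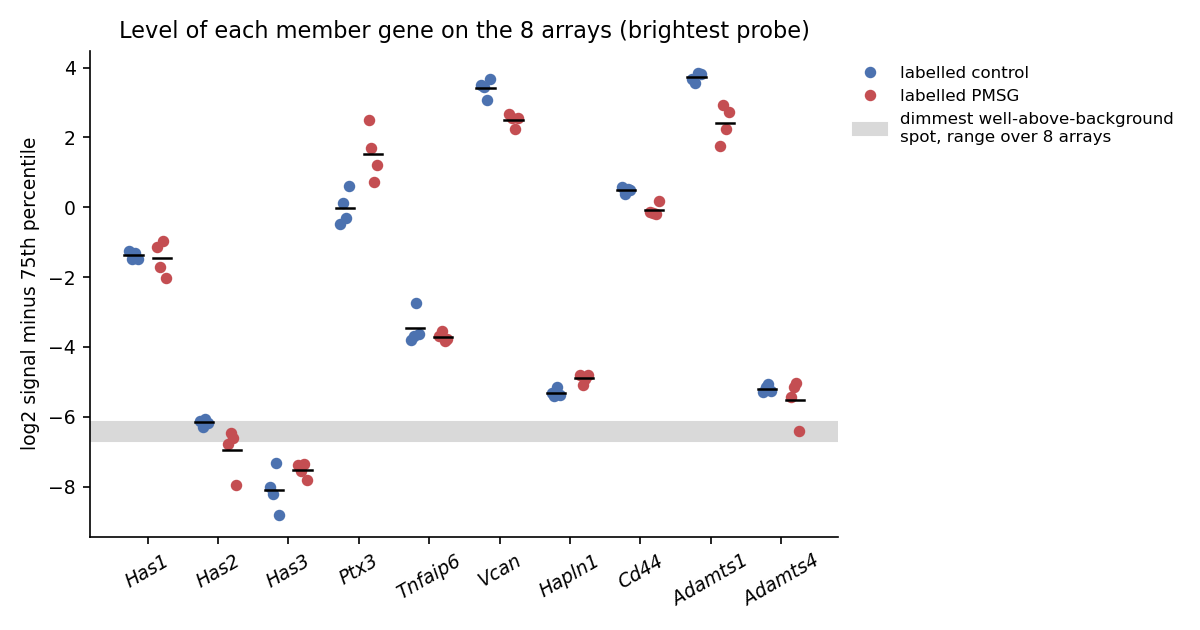
Level of each member gene, by its brightest probe, on the 4 arrays labelled control and the 4 labelled PMSG, as log2 signal minus the array's 75th percentile. Points are arrays, black lines are group means, and the grey band is the range over arrays of the dimmest spot called well above background. Ptx3, Vcan, Hapln1, Cd44 and Adamts1 separate without overlap. Has2 also does so, at the edge of detection and without a call. Has3 lies below the band on all arrays.

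Of the synthases, Has2, the enzyme of the expanding cumulus, had a signal at the edge of detection. Its levels were -6.11, -6.28, -6.05 and -6.19 on control-labelled arrays 1 to 4, all of them well above background. On PMSG-labelled arrays 1 to 4 they were -6.77, -6.45, -6.62 and -7.94, and 1 of the 4 was well above background. The groups did not overlap, and PMSG-labelled array 4 was the lowest. Given the dimmest measurable spots, the group means put Has2 at least 1.18-fold higher on arrays labelled control, with no allowance for the spread between arrays. By the fit, the labels differed by -0.79 (SE 0.30, 95% interval -1.48 to -0.09) and did not pass (limma adjusted p = 0.0779). It passed without PMSG-labelled array 4 (-0.45, limma adjusted p = 0.0156), under median centring (0.0182), under quantile normalization (0.00279) and with array weights (0.0391). The control-labelled arrays alone met the filter for testing Has2, and most of its PMSG-labelled values lay below background. These passes and the lack of overlap are therefore no separate support for a difference. After normexp background correction the difference was 0.01 (limma adjusted p = 0.941), the highest adjusted p among the alternatives.

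Has1, a synthase known for low activity in most tissues, had 2 probes, and neither passed. The brighter, starting at base 2014, stood at -1.38 ± 0.13 (SD, n = 4) on arrays labelled control and at -1.46 ± 0.50 (SD, n = 4) on arrays labelled PMSG. Its log2 difference of -0.08 (95% interval -0.62 to 0.46) did not pass (limma adjusted p = 0.797), and its sign turned under 3 alternatives. The probe starting at base 507 had control values of -4.31, -4.20, -4.39 and -4.43, and values of -2.86, -3.74, -2.76 and -4.48 under the PMSG label. PMSG-labelled array 4 lay below every control there, and the other 3 lay above. Its log2 difference of 0.87 (SE 0.36) did not pass (limma adjusted p = 0.0941). It passed without PMSG-labelled array 4 (1.21, limma adjusted p = 0.00652) and with array weights (1.08, 0.0116), and its adjusted p reached 0.211 at the other end of its alternatives. For Has3, the third synthase, 0 of 8 arrays gave a signal well above background (measured levels from -8.80 to -7.33), so it was not tested.

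Ptx3, the pentraxin that organises the heavy chains on hyaluronan, was higher on arrays labelled PMSG by both of its probes. At the brighter probe (start 1790) control-labelled arrays 1 to 4 stood at -0.48, 0.13, -0.31 and 0.62, and PMSG-labelled arrays at 2.51, 1.70, 0.72 and 1.21. The groups did not overlap, although control-labelled array 4 and PMSG-labelled array 3 lay close together. PMSG-labelled arrays exceeded controls by 1.55 on the log2 scale (SE 0.40, 95% interval 0.64 to 2.46, limma adjusted p = 0.0180), a fold of 2.92. At the probe starting at base 719 the controls stood between -4.53 and -3.75 and the PMSG-labelled arrays at -1.04, -1.96, -1.84 and -2.35. That difference was 2.35 (SE 0.29, limma adjusted p = 6.55e-04), a fold of 5.11. Both probes passed under all of the 20 alternatives, with adjusted p-values up to 0.0495 for the brighter.

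Marker genes of other cell types moved in the same direction as Ptx3. All 7 tested oocyte markers were higher on arrays labelled PMSG, and their summed signal, in multiples of the array's 75th percentile, ran from 3.22 to 5.85 on control and from 11.3 to 24.8 on PMSG-labelled arrays. Of the oviduct epithelium markers 4 of 4 were higher, with sums from 1.62 to 2.86 and from 6.54 to 12.5. Of the macrophage and leukocyte markers 4 of 7 were higher, with sums from 8.32 to 10.2 and from 12.5 to 14.2. A sum leans on the brightest probes of its list and does not measure an amount of cells. The part of these cell types in the difference of Ptx3 was not tested.

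Tnfaip6, whose product loads heavy chains onto hyaluronan, stood at -3.81, -3.68, -2.74 and -3.63 on the control-labelled arrays. It stood at -3.70, -3.55, -3.84 and -3.77 on the PMSG-labelled arrays, within the range of the controls apart from array 3, at -3.84. Control-labelled array 3 was the highest of the 8. Its log2 difference was -0.25 (SE 0.23, 95% interval -0.78 to 0.28) and did not pass (limma adjusted p = 0.412). Over the 20 alternatives it ran from -0.45 to -0.01, with adjusted p-values from 0.170 to 0.952.

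**Figure D2:**
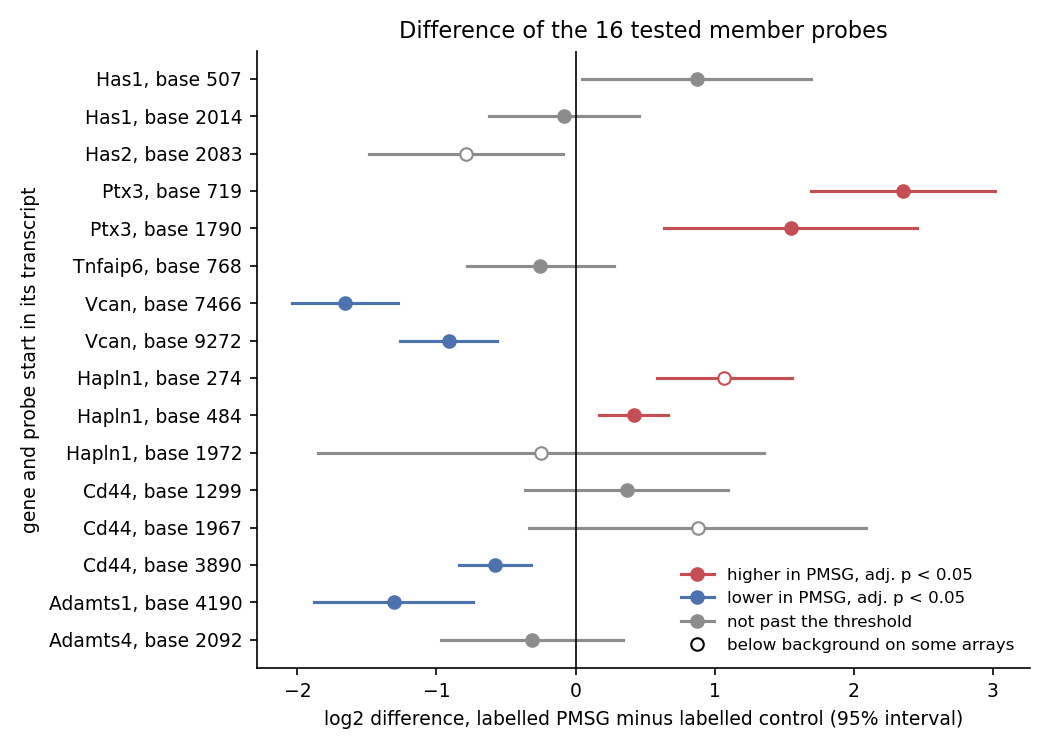
Log2 difference, arrays labelled PMSG minus arrays labelled control, of the 16 tested probes of the member genes, with limma's 95% interval; colours give the call at an adjusted p under 0.05 and open circles mark probes below background on some arrays. Both Ptx3 probes lie to the right of 0 and both Vcan probes to the left, while the probes of Hapln1 and Cd44 lie on both sides.

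Vcan encodes versican, the large proteoglycan that binds hyaluronan, and it was lower on arrays labelled PMSG by both of its probes. The brighter probe (start 9272) stood at 3.50, 3.44, 3.08 and 3.66 on control-labelled arrays and at 2.67, 2.57, 2.24 and 2.55 on PMSG-labelled arrays. All PMSG-labelled arrays lay below all controls. The log2 difference was -0.91 (SE 0.15, 95% interval -1.26 to -0.56, limma adjusted p = 0.00257), 1.88-fold higher on arrays labelled control. The probe starting at base 7466 stood between 0.57 and 1.21 on controls and between -0.95 and -0.43 on PMSG-labelled arrays. Its difference was -1.66 (SE 0.17, limma adjusted p = 3.03e-04), and both probes passed under all 20 alternatives.

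Hapln1, the link protein that locks versican to hyaluronan, was dim at all of its 3 probes. The probe that stands for it (start 484) stood at -5.32, -5.41, -5.16 and -5.37 on controls and at -4.81, -5.09, -4.91 and -4.79 on PMSG-labelled arrays, without overlap. The log2 difference was 0.42 (SE 0.11, 95% interval 0.17 to 0.66, limma adjusted p = 0.0180). It missed the threshold without control-labelled array 2 (0.0570) or 4 (0.0534), under median centring (0.190), quantile normalization (0.561), normexp (0.0941) and eBayes with trend and robust options (0.111). The probe starting at base 274 was well above background on 4 of 4 PMSG-labelled and 0 of 4 control-labelled arrays. By group means this probe was at least 1.65-fold higher on the former, a bound for this probe and not for the gene. It was tested only through the PMSG-labelled arrays, and its control values lay below background. Its limma adjusted p of 0.00571 (0.129 after normexp, the highest of its alternatives) is therefore no separate support for a difference. The probe starting at base 1972 stood between -6.45 and -5.44 on controls and at -6.75, -7.99, -5.34 and -4.46 on PMSG-labelled arrays, of which 2 were well above background. Its difference of -0.25 (95% interval -1.85 to 1.35) did not pass (limma adjusted p = 0.795).

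Cd44, the hyaluronan receptor of cumulus and immune cells, was lower on arrays labelled PMSG by its brightest probe (start 3890). It stood at 0.57, 0.37, 0.53 and 0.49 on controls and at -0.14, -0.17, -0.19 and 0.17 on PMSG-labelled arrays. The groups did not overlap, and PMSG-labelled array 4 lay nearest to the controls. Cd44 differed by -0.58 there (SE 0.11, 95% interval -0.84 to -0.32, limma adjusted p = 0.00513), 1.49-fold higher on arrays labelled control. CD44 is known to be spliced into many forms through variable exons in the middle of the gene. The file lists 3 Ensembl transcripts for this probe, 2 for the probe starting at base 1299 and 1 each for those starting at bases 1967 and 1093.

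Of the 3 inner Cd44 probes, 2 could be tested, and neither passed. The probe at base 1299 stood between -4.62 and -4.11 on controls and at -3.46, -4.38, -3.43 and -4.77 on PMSG-labelled arrays, a mean shift of 0.37 (SE 0.32) that did not pass (limma adjusted p = 0.390). It was 0.18 without PMSG-labelled array 1, 0.17 without array 3 and 0.62 without array 4. PMSG-labelled arrays 1 and 3 lay above all controls, array 4 lay below them and array 2 lay among them. The probe at base 1967 was well above background on 1 control-labelled and 3 PMSG-labelled arrays, with a difference of 0.88 that did not pass (limma adjusted p = 0.226). The probe at base 1093 was well above background on 0 of 8 arrays and was not tested.

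Whether probes of 1 gene changed unequally was tested, after the values had been seen, on the difference between the probes on each array. Over the 9 pairs of tested probes, 3 reached the smallest p that 4 arrays against 4 allow, 0.0286 (exact two-sided permutation test), which is 0.0857 after Benjamini-Hochberg adjustment over the pairs and does not pass. These 3 pairs were those of Has1, Ptx3 and Vcan, where the changes differed by 0.96, 0.81 and -0.74 on the log2 scale (earlier start minus later start). For the pair of Cd44 probes at bases 1299 and 3890 the changes differed by 0.94, with overlap between the groups (exact permutation p = 0.0857, adjusted 0.154).

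Adamts1, the protease known to be induced through the progesterone receptor before ovulation, was lower on arrays labelled PMSG. Its single probe (start 4190), averaged over 10 spots per array, stood at 3.66, 3.56, 3.85 and 3.82 on controls and at 1.75, 2.94, 2.23 and 2.74 on PMSG-labelled arrays. The groups did not overlap, and the PMSG-labelled arrays were spread more widely, with an SD of 0.54 against 0.13 (n = 4 each). Adamts1 differed by -1.31 (SE 0.25, 95% interval -1.88 to -0.74, limma adjusted p = 0.00474), 2.48-fold higher on arrays labelled control, and it passed under all 20 alternatives. Adamts4, a related protease with the same kind of substrate, stood between -5.29 and -5.06 on controls and at -5.43, -5.16, -5.02 and -6.42 on PMSG-labelled arrays. PMSG-labelled array 4 was the lowest of the 8. Its log2 difference of -0.31 (SE 0.28, 95% interval -0.97 to 0.34) did not pass (limma adjusted p = 0.410), and passed under quantile normalization (-0.58, 0.0423). Without PMSG-labelled array 4 the difference was -0.01 (limma adjusted p = 0.952, the highest of its alternatives).

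Markers of steroid-making cells moved in the same direction as Vcan, Cd44 and Adamts1. All 5 of them were lower on arrays labelled PMSG, with summed signals from 150 to 172 on control and from 14.7 to 32.5 on PMSG-labelled arrays. Among them Akr1c18, listed as Akr1c3, was well above background on 4 control-labelled arrays and on 1 PMSG-labelled array. Its call rests mostly on PMSG-labelled values below background and is no separate support for a difference. Of the 7 endothelial markers 4 were lower and 1 higher, with sums from 20.9 to 24.4 and from 17.0 to 18.5. Of the 5 granulosa markers 1 was higher and 1 lower, with sums from 69.3 to 107 and from 64.6 to 85.6. Of the 3 red blood cell markers 1 was lower and 0 higher, with sums from 4.80 to 13.8 and from 2.12 to 3.57. Called markers of oocytes, oviduct epithelium, and macrophages and leukocytes, given above, went the other way. So did those of theca cells (1 of 2 higher, 0 lower) and of mesothelium and surface epithelium (1 of 4 higher, 0 lower). Of the 5 adipocyte markers 0 were called. Markers of fibroblasts and smooth muscle also went the other way, with 3 of 7 higher and 0 lower and sums from 138.7 to 168.8 and from 159.5 to 189.8. These sums lean on their brightest probes, for example Kdr in the endothelial list and Inha in the granulosa list. The part of these cells in the lower levels of the 3 genes was not tested. Both slide rows held 2 arrays of each label. Within the rows the 5 called genes kept their sign, with Ptx3 at 0.83 and 2.26, Vcan at -1.15 and -0.68, Hapln1 at 0.39 and 0.44, Cd44 at -0.62 and -0.54, and Adamts1 at -1.11 and -1.51.

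**Figure D3:**
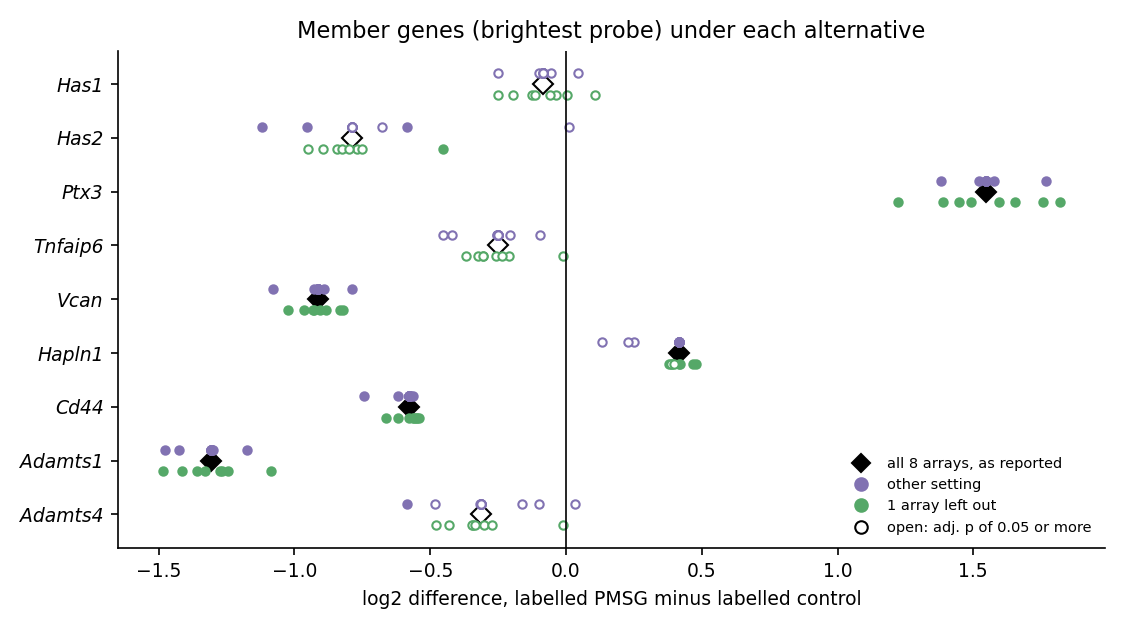
Log2 difference, arrays labelled PMSG minus arrays labelled control, of the brightest probe of each tested member gene under the alternatives run on single probes. The average over the tested probes of a gene, under which fewer members were called, is not drawn. Diamonds are the reported values, purple points are other settings and green points leave out 1 array; filled symbols have an adjusted p under 0.05. Ptx3, Vcan, Cd44 and Adamts1 are filled throughout, while Has2 runs from -1.12 to 0.01 and Hapln1 from 0.13 to 0.48.

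The genes whose brightest probe followed a member most closely over the 8 arrays were found among 13408 genes. Nearest to Ptx3 were Zfp688 (Pearson r = 0.989), Fam227b (0.981) and Sp1 (0.973). Nearest to Adamts1 were Pde4b (0.997), Nfs1 (0.995) and Tnfaip1 (0.991). Deviations from the group means, which leave out the difference between the labels, correlated between 0.92 and 0.99 for these 6 genes. The points share arrays and scaling, and these are the highest values of many, so they are a description only.

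Of the 59 other genes of the pathway, 54 had a probe and 45 could be tested. Of these 45, 26 were called, 9 higher and 17 lower on arrays labelled PMSG, which is 57.8% against 34.2% over all probes. These shares are not alike, since the first takes the brightest tested probe of each gene and the second every tested probe. The lists were also chosen with earlier results of these data known. Whether calls are more frequent in the pathway was not tested. The median log2 difference of the 45 genes was -0.23, against 0.11 over all tested probes.

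Among genes that supply the building blocks of hyaluronan, calls went one way. Of 7 tested, 5 were lower on arrays labelled PMSG, 0 were higher and 2 did not pass, with a median log2 difference of -1.03. Gfpt2, an isoform of the enzyme that commits sugar to the hexosamine pathway, stood at -3.86 ± 0.43 (SD, n = 4) on controls and at -5.20 ± 0.07 (SD, n = 4) on PMSG-labelled arrays (difference -1.34, limma adjusted p = 0.00166; -0.50 after normexp). Ugdh, which makes UDP-glucuronate, differed by -1.19 (SE 0.13, limma adjusted p = 4.68e-04). Pgm3, a mutase of the hexosamine pathway, differed by -1.14 (SE 0.09, limma adjusted p = 1.44e-04) by its brightest probe, while its other probe differed by 0.68 and did not pass (limma adjusted p = 0.155). The groups did not overlap for these 3 genes.

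Genes of hyaluronan breakdown went both ways. Of 8 tested, 2 were lower, 2 were higher and 4 did not pass. The lower genes were Cemip2, a cell-surface hyaluronan-degrading protein listed under the older name Tmem2 (-0.79, limma adjusted p = 0.00285), and Gusb, the lysosomal beta-glucuronidase (-0.70, limma adjusted p = 6.73e-04). Among the other receptors Lyve1, a marker of lymphatic endothelium, was lower, at -0.83 ± 0.29 (SD, n = 4) against 0.26 ± 0.27 (SD, n = 4) on controls (difference -1.09, limma adjusted p = 0.00291). It was 1 of 2 tested in that list.

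The heavy chain gene Itih3, part of the inter-alpha-trypsin inhibitor family, was higher on arrays labelled PMSG, at -3.29 ± 0.56 (SD, n = 4) against -4.44 ± 0.16 (SD, n = 4; difference 1.15, limma adjusted p = 0.0108; 0.68 after normexp). It was 1 of 2 tested genes of that family. Hapln2, another link protein, was lower by 1.21 on the log2 scale (limma adjusted p = 3.95e-04), and the other 4 tested lecticans and link proteins did not pass. Of the other ADAMTS genes Adamts9 was lower and Adamts5 higher, with differences of -1.44 (SE 0.15, limma adjusted p = 3.19e-04) and 0.79 (SE 0.15, limma adjusted p = 0.00532). Among 5 matrix partners of versican, Tnc (tenascin C) was lower by 0.84 on the log2 scale (limma adjusted p = 0.0161; difference -0.50 after normexp), and Fbln2 (fibulin 2) was higher by 0.58 (limma adjusted p = 0.0122; 0.0628 under median centring).

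The list of cumulus expansion signals, which also holds receptors, enzymes and transcription regulators, split into lower and higher genes. Of 12 tested, 6 were lower, 4 were higher and 2 did not pass, with a median log2 difference of -0.82. Ereg and Areg encode the epidermal growth factor-like ligands epiregulin and amphiregulin. Ereg was well above background on 4 of 4 control-labelled and 0 of 4 PMSG-labelled arrays and, by group means, was at least 18.3-fold higher on the former. After normexp its fitted log2 difference was -2.11, below that bound. Ereg was tested only through the control-labelled arrays. Its call among the 6 lower genes (limma adjusted p = 1.16e-05) rests on PMSG-labelled values below background and is no separate support for a difference. Areg stood at -0.66 ± 0.26 (SD, n = 4) on controls and at -4.74 ± 1.01 (SD, n = 4) on PMSG-labelled arrays (difference -4.08, limma adjusted p = 4.49e-04; -2.73 after normexp). Gdf9, the oocyte factor, was higher by 2.05 (SE 0.24, limma adjusted p = 5.92e-04). Ptgs2, the prostaglandin synthase of the preovulatory follicle, was well above background on 1 control-labelled and 0 PMSG-labelled arrays and was not tested.

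**Figure D4:**
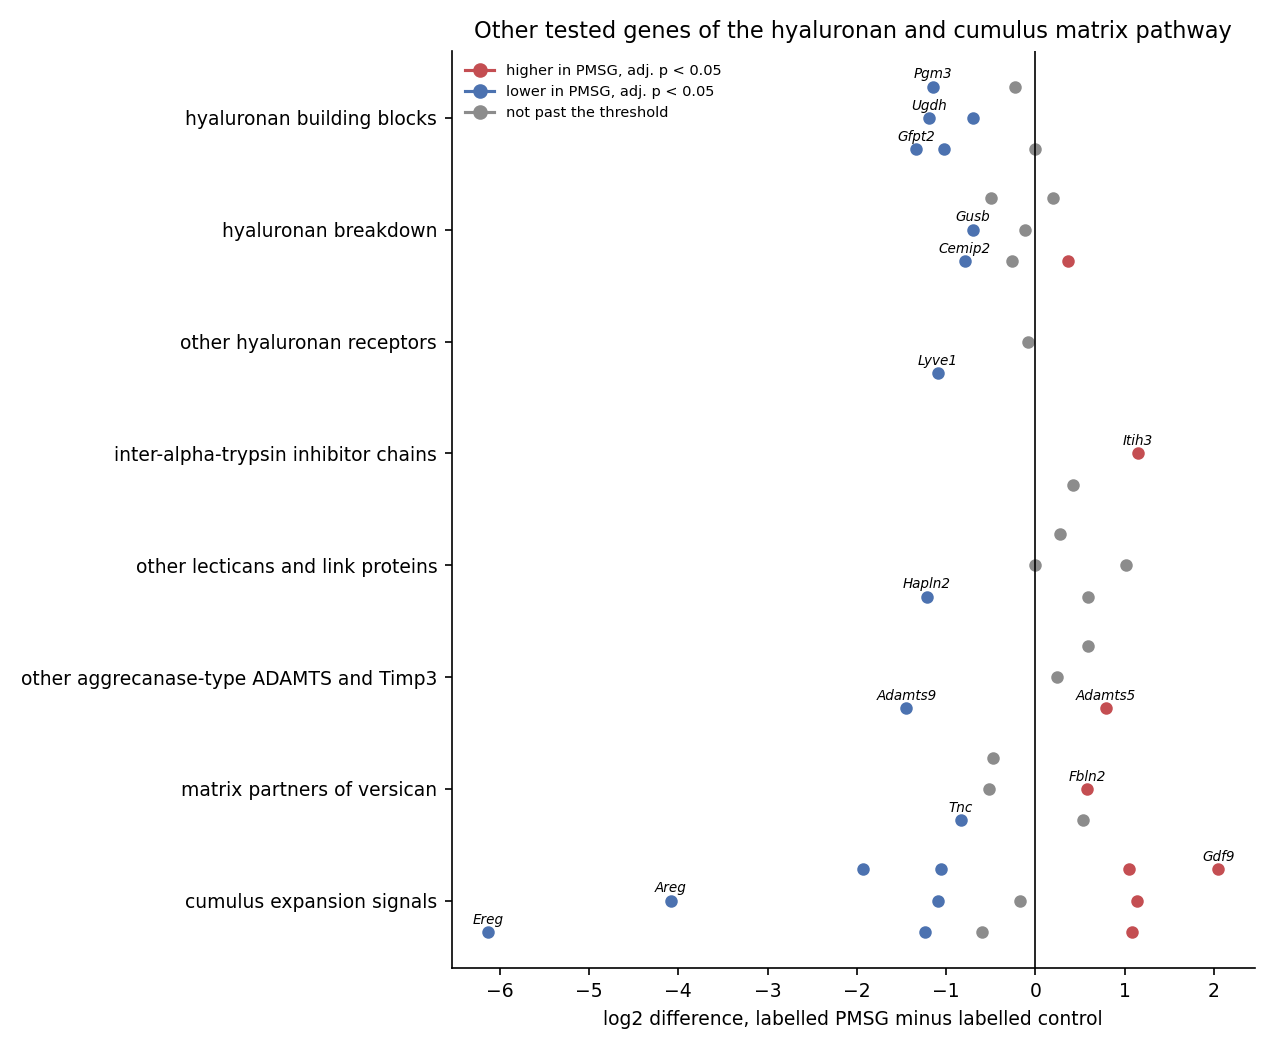
Log2 difference, arrays labelled PMSG minus arrays labelled control, of 44 of the 45 tested genes of 8 lists around the hyaluronan matrix, 1 point per gene by its brightest probe (called genes with the largest differences in each list are named), coloured by its call at an adjusted p under 0.05. The building blocks lie at or left of 0, and the list of cumulus expansion signals runs from Ereg, whose fitted value is no bound, to Gdf9 at 2.05.

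Promoter windows of 250 bases before the transcript start were taken from RefSeq (GRCr8) for 8 of the 10 members, in 9 windows since Vcan has 2 that overlap. They are given because members moved in both directions. Both strands were searched for 4 motifs. The full cyclic AMP response element, TGACGTCA, was in 1 of the 9 windows, that of Has1, and in 1.59% of all 33469 windows of the same length. Its first part, TGACG, which any full element also contains, was in 4 of 9 windows and in 18.2% of all. The GC box, GGGCGG, was in 3 of 9 windows and in 30.5% of all. The overlapping windows of Vcan hold the same GC box, so 1 site counts for both. The E-box CACGTG was in 0 of 9 windows and in 5.59% of all. The first window below holds the full element, and the others belong to the member with the largest difference in each direction by brightest probe (the dimmer Vcan probe, at -1.66, exceeds Adamts1). Capitals mark the motifs; each is printed 5′ to 3′ on the gene's strand.
Has1, chr1:67378445-67378694, minus strand: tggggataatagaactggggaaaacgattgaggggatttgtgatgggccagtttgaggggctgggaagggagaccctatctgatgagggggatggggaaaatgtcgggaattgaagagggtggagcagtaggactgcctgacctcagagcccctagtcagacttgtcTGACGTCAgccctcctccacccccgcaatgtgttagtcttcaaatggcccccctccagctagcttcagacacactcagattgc
Ptx3, chr2:152797313-152797562, plus strand: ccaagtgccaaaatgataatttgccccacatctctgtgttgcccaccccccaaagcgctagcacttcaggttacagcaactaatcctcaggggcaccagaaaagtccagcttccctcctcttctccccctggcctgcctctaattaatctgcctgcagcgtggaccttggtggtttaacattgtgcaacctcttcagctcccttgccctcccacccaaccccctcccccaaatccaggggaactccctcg
Adamts1, chr11:38427385-38427634, minus strand: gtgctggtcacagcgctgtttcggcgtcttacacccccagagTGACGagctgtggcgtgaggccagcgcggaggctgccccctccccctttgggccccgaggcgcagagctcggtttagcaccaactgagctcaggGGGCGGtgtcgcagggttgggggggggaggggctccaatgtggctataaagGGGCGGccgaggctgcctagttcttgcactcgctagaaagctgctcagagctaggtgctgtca

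The Has1 element starts 83 bases before the transcript start, and its TGACG overlaps it on both strands. Adamts1 has TGACG at 208 bases and 2 copies of GGGCGG, the first at 114 bases before the start. The window of Ptx3 holds 0 of the 4 motifs. A match is a description of these letters and was not set against the arrays.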

How the data were processed

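The authors deposited 1 scanner file per array. Its processed intensity comes from Feature Extraction 11.5.1.1 (Agilent), per the file headers, which detrended it and put surrogates where a spot did not exceed background. The labels' protocols give 500 ng of total RNA per sample, oligo-dT priming and Cy3 labelling. A deposited table of log2 values matched log2 signal minus the 75th percentile: all 8 columns fitted their own array best (lowest r 0.998), with medians from -3.21 to -2.82. Their stated scale, centring and direction are not given in the sources used here.

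From the scanner files, 58717 non-control spots of 30367 probes were read per array. Outlier spots were left out, the log2 processed signals of a probe's spots were averaged, 17 probes that lacked a usable spot on 1 or more arrays were dropped, and the array's 75th percentile was subtracted. No spot was saturated. A probe counted as well above background where at least 0.5 of its spots did, and was tested if it did so on 4 or more of the 8 arrays. Groups came from the sample titles. Differences between the labels were fitted without covariates by lmFit and eBayes (limma 3.58.1, R 4.3.3), and p-values of 25303 probes were adjusted by Benjamini-Hochberg, with a threshold of 0.05; the procedure was tested on simulated data. Exact permutation tests used scipy 1.17.1. A bound sets the bright group's mean against, on each dim array, the higher of the probe's own value and the array's dimmest spot well above background. It compares group means and makes no allowance for the spread between arrays. List genes were matched by file name (104 of 115) or RefSeq synonym (3). Named genes are all members with all probes, of each pathway list up to 3 called genes with the largest difference, the 3 genes most correlated with the member most different in each direction, and Lhcgr, Star, Cyp11a1 and Amh as a check of the labels. Ptgs2 was named after its values were seen. The members and lists were chosen with earlier results of these data known. The number of arrays limits the precision of every comparison. Alternatives changed the scaling, background correction, source of values, filter, spread estimate, blocks and arrays used. No protein sequences were used here, and 1 gene that the rule names and 1 probe sequence are not reported.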

Additional observations from a re-analysis of the deposited data

Results flagged for a closer look

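Among 36 groups of 4 values, those of 18 probes under both labels, 2 had 1 array far from the other 3, judged by its gap to the nearest other array over the whole range of the 4. About 1 in 20 groups would show this by chance, which is 1.8 here. For Tnfaip6, control-labelled array 3 stood at -2.74 against -3.81 to -3.63, a gap of 0.830 of the range; without it the log2 difference was -0.01 (limma adjusted p = 0.952; its alternatives gave 0.170 to 0.952). For the Cd44 probe starting at base 3890, PMSG-labelled array 4 stood at 0.17 against -0.19 to -0.14, a gap of 0.863 of the range; without it the log2 difference was -0.66 (limma adjusted p = 0.00153; its alternatives gave 0.00153 to 0.0227), still past the threshold.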

How the results depend on the processing

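The count of member genes past the threshold was 5 of 9 and ran from 4 to 6 over the alternatives on 1 probe per gene; averaging the tested probes of a gene gave 3. With 1 array left out it ran from 4 to 6, that of pathway genes from 24 to 28 (26 with all arrays), and that of all tested probes from 6552 to 11382 (8658 with all arrays; 11382 without PMSG-labelled array 4). The replicate block gave 5 member genes, 23 pathway genes and 7346 probes. Replicate numbers do not pair the arrays, whose deviations correlated at 0.0444, 0.0361, 0.183 and -0.0192. A block for slide or scan could not be fitted, as there was 1 of each. For Cd44 the average over probes joins -0.58 of the brightest probe with 0.37 and 0.88 of its other tested probes. The lower call of Cd44 therefore rests on its brightest probe alone. Such averages are not among the 316 values of single member probes under alternatives. Of these 316 values, 295 kept their direction and side of the threshold, 7 lost the call, 7 gained it and 7 turned in sign. Those that turned in sign were not called before or after. Normexp gave 0.0341 for Adamts4, 0.131 for the Hapln1 probe at base 1972 and 0.0124 for Has2. With 1 array left out that Hapln1 probe ran from -0.81 to 0.37 (0.37 without PMSG-labelled array 2), and the Has1 probe at base 2014 from -0.25 to 0.11 (0.0032 without PMSG-labelled array 2, 0.11 without array 4); array weights gave 0.0454. The normexp offset of 50 shrinks differences of dim probes by construction; other causes were not tested. Of 399 values of 20 other genes, 395 kept direction and call and 4 lost the call, among them Fbln2 under median centring (limma adjusted p = 0.0628). Quantile normalization brought the median difference of all probes from 0.11 to 0.03 and median centring to -0.05. Signal over background limits Has2, Has3, 2 Hapln1 probes and 2 Cd44 probes.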
